A study of Mus musculus with 21 samples.

Results

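The 6 libraries compared here are the 3 from fibroblasts given TGFb1 and CHIR together and the 3 from fibroblasts given DMSO, of 21 bulk RNA-seq libraries in 7 groups of 3. They were chosen by their treatment label alone. All 21 came from mouse lung fibroblasts labelled Ly6C+/Sca-1+, that is, bearing the surface proteins of the Ly6c and Ly6a genes, and stimulated in vitro. DMSO is the solvent in which small molecules are usually dissolved, so the baseline is a solvent control and not an untouched culture. Libraries from TGFb1 with DMSO, from CHIR alone and from TGFb1 with no added solvent served as references, and those from TGFb1 with IL1b or TNF entered only the shared estimate of spread. No dose, duration or order of addition, and no number of mice or cultures, is given in the sources used here, so the p-values measure the spread between these libraries, which may be technical.

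TGFb1 is a secreted cytokine that signals through SMAD transcription factors and drives fibroblasts towards collagen-secreting and contractile states in lung fibrosis. CHIR is the usual short name of an inhibitor of the kinase GSK3. Blocking GSK3 lets beta-catenin accumulate, enter the nucleus and, with TCF and LEF proteins, switch on Wnt target genes such as Axin2. The comparison of both agents with DMSO asks where cells that received both signals ended up: which genes lay at the solvent level, which kept the change that TGFb1 makes without CHIR, and which changed in a way that TGFb1 in solvent did not produce.

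The 3 DMSO libraries held 28176095, 28441137 and 23546115 counted reads, and the 3 TGFb1 + CHIR libraries 27939699, 20996190 and 20405826. The summed level of 9 fibroblast markers was 39227.2 ± 98.6 CPM (read counts scaled to a common library size; SD, n = 3) with DMSO and 81168.5 ± 4272.5 CPM with both agents, with Col1a1 the largest contributor. By the edgeR quasi-likelihood test with Benjamini-Hochberg adjustment, Col1a1, Col1a2 and Col3a1 rose, 5 of the 9 fell (Pdgfra, Pdgfrb, Dcn, Lum and Vim), and Thy1 differed by 0.04 log2 (adjusted p = 0.516). The call for Vim was lost without DMSO library 2 or 3 or TGFb1 + CHIR library 1 or 3 (adjusted p from 0.108 to 0.177). Of 10 immune markers, Ptprc, Adgre1, Cd3e and Tyrobp were at 0 in both groups, and the sum was 3.64 ± 0.556 and 4.49 ± 0.548 CPM. The endothelial sum was 8.53 to 10.9 CPM over the DMSO libraries and 22.5 to 24.9 CPM with both agents, with Cldn5 at 0 in both groups. Its members went both ways: 2 of 6 were called higher, 1 lower and 3 neither. The vascular endothelial growth factor receptor gene Kdr, at 1.60 CPM with DMSO and 20.4 CPM with both agents, made up most of the second sum, while the angiopoietin receptor gene Tek fell from 6.71 to 0.740 CPM. The mural and smooth muscle sum was 216.7 ± 8.8 and 363 ± 14 CPM, mostly Actg2. Its members also went both ways: of 7 tested, 3 were called higher and 4 lower, with a median of -0.41 log2. The lower calls for Myh11 and Des were lost in some fits without 1 library. The part of such cells in the results was not tested. In bulk RNA, fewer cells of a kind and less RNA per cell cannot be told apart.

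The genes of the labelled surface markers were far lower with both agents. Ly6a, the gene of Sca-1, stood at 135.6, 146.3 and 143.1 CPM in the DMSO libraries and at 8.71, 7.95 and 6.82 CPM with both agents. It fell by 4.16 ± 0.09 on the log2 scale (SE; adjusted p = 2.03e-33), and the groups were far apart. Ly6c1, whose protein is bound by the Ly6C antibody, went from 49.5, 51.7 and 48.2 CPM to 0.556, 0.790 and 0.764 CPM. Its log2 change was -6.17 ± 0.15 (adjusted p = 6.11e-37), though reads may be shared with its near copy Ly6c2. TGFb1 in solvent alone gave Ly6a 66.6 ± 4.56 CPM and CHIR alone 60.6 ± 4.01 CPM, and the interaction, the CHIR effect with TGFb1 less the CHIR effect without it, was -1.85 log2 (adjusted p = 1.19e-16). Throughout, log2 values are fitted fold changes with their standard errors, and adjusted p-values come from edgeR's quasi-likelihood test with Benjamini-Hochberg adjustment over 16197 genes.

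The net state was far from the baseline. Of 16197 genes tested, 10225 (63.1%) differed between TGFb1 + CHIR and DMSO at an adjusted p under 0.05, of which 5039 (31.1%) were higher and 5186 (32%) lower. At least 2-fold differences numbered 1275 higher (7.87%) and 2454 lower (15.2%). The shares of 31.1% and 32% are the background for every count of list members called between TGFb1 + CHIR and DMSO. In the principal component plot of the 12 libraries of the 4 groups, the first axis held 73.8% of the variance of the 2000 most variable genes. On it the TGFb1 + CHIR libraries lay at 62.8 to 65.5, next to TGFb1 + DMSO at 57.8 to 60.8 and across from DMSO at -61.5 to -57.6. On the second axis, with 12.6%, TGFb1 + CHIR lay at 28.8 to 32.1, next to CHIR alone at 19.1 to 20.1. The mean size of the log2 difference from DMSO over all genes was 0.795 with both agents, 0.749 with TGFb1 + DMSO and 0.441 with CHIR alone. These contrasts share the same 3 DMSO libraries.

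**Figure D1:**
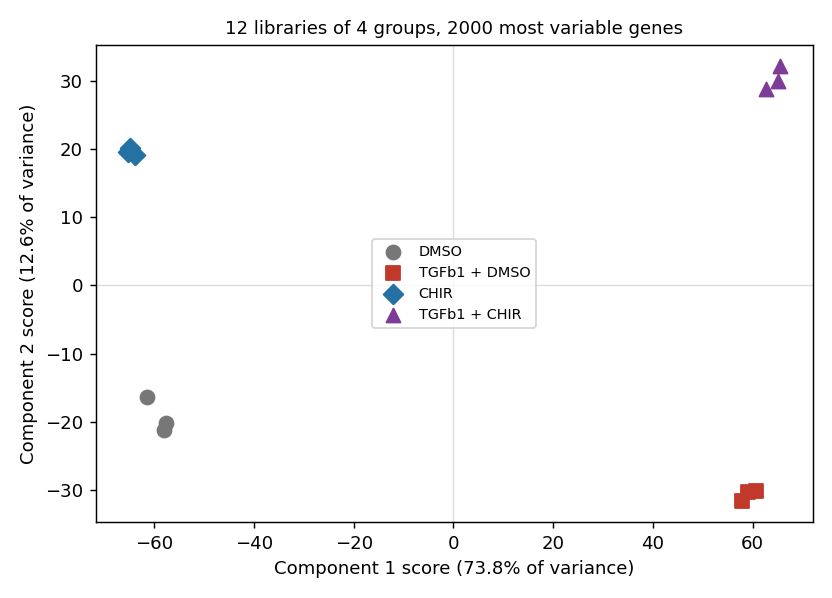
Each point is 1 library, with the first principal component (73.8% of variance) on the x axis and the second (12.6%) on the y axis, computed from log2 CPM of the 2000 most variable genes. TGFb1 + CHIR lies beside TGFb1 + DMSO on the first axis and on the side of CHIR alone on the second.

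To sort genes into those back at the baseline, those still changed and those newly changed, TGFb1 + DMSO against DMSO was taken as the TGFb1 response. At 2-fold or more, 1307 genes were higher in it (8.07%) and 2224 lower (13.7%). A gene counted as back at baseline if CHIR moved it significantly against that response and the 95% confidence interval of its net change lay within 1.5-fold either way. It counted as still changed if its net change was called, at least 2-fold and in the TGFb1 direction, and as past baseline if at least 2-fold in the opposite direction. Of the 3531 responsive genes, 2425 (68.7%) stayed changed, 126 (3.57%) were back at baseline and 48 (1.36%) were past it. The other 932 lay between these classes, 505 of them with no net call and an interval that was absent or reached past 1.5-fold, or with no called effect of CHIR on top of TGFb1. In 230 of these 505 CHIR moved the gene back, so only the interval kept it out of the class. Another 408 had a net call under 2-fold in the TGFb1 direction, 308 of them moved back by CHIR. The last 19 had one in the opposite direction, and CHIR moved all 19 back. New genes were those whose TGFb1 response had an interval within 1.5-fold but whose net change was called and at least 2-fold: 169 met this. As shares of all genes tested, the classes held 15% (still changed), 0.778% (back), 0.296% (past) and 1.04% (new). The classes describe levels at harvest and do not say whether a gene had first moved with TGFb1 and then returned.

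**Figure D2:**
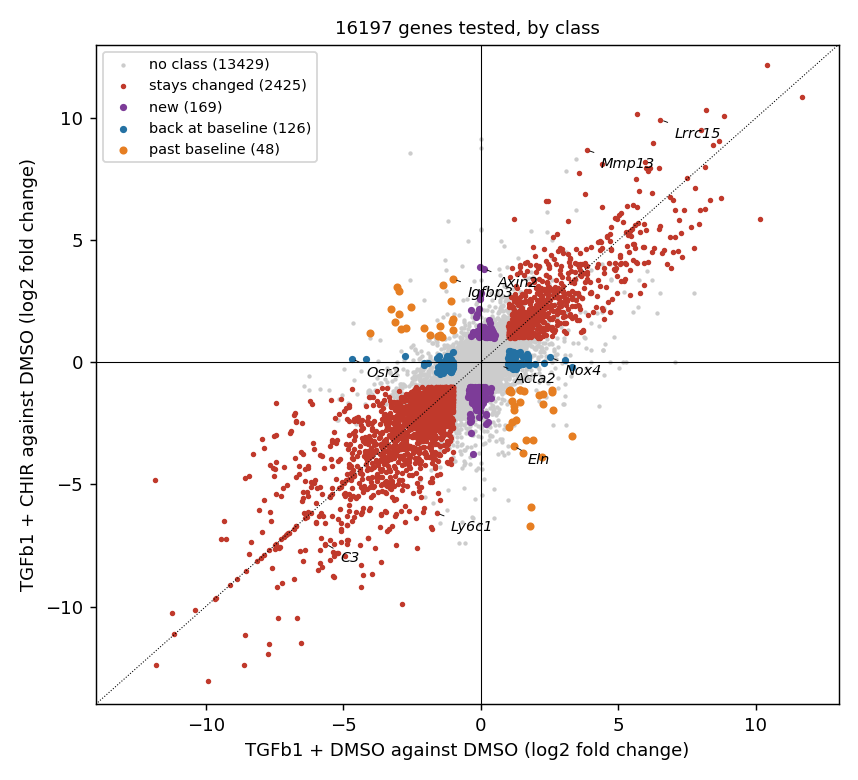
Each point is 1 gene, with the log2 change from DMSO with TGFb1 + DMSO on the x axis and with TGFb1 + CHIR on the y axis, coloured by class. The 2425 genes that stayed changed lie along the diagonal, the 126 back at baseline along the horizontal zero line, and the 169 new genes along the vertical zero line.

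Genes that TGFb1 raised were back at the solvent level in 84 of 1307 cases (6.43%), and genes that it lowered in 42 of 2224 (1.89%). Nox4, an oxidase that makes hydrogen peroxide and is a known TGFb1 target in lung fibroblasts, stood at 6.74, 7.69 and 7.62 CPM with DMSO, 43.8, 44.9 and 38.7 CPM with TGFb1 + DMSO, and 10, 7.56 and 7.53 CPM with both agents. The both-agent values overlapped the solvent values, with a net log2 change of 0.20 ± 0.12 (adjusted p = 0.131). Cmklr1, the receptor of the chemoattractant chemerin, was at 2.31, 2.69 and 2.35 CPM, then 26.9, 24.1 and 22.8 CPM with TGFb1 + DMSO, and 2.45, 2.07 and 1.88 CPM with both. Its net log2 change was -0.18 ± 0.20, and the groups overlapped. Cmklr1 met the definition of the class in only 9 of 17 alternative fits, and did not without DMSO library 1 or 3 or TGFb1 + CHIR library 1 or 2, nor with RLE scaling, voom, a 1 CPM filter or mitochondrial and rRNA genes left out. The same class held the heparan sulfate carrier Sdc3 and the beta-tubulin gene Tubb2b, with TGFb1 responses of 1.98 and 1.76 log2 and net changes of -0.06 and -0.13 log2.

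Osr2, an odd-skipped zinc finger transcription factor of embryonic mesenchyme, was back at the solvent level from the other direction. Its level was 57.9, 50 and 48.9 CPM with DMSO, 1.63, 2.42 and 1.98 CPM with TGFb1 + DMSO, and 56.7, 52 and 64.3 CPM with both agents. CHIR alone left it at 30.6 ± 2.36 CPM (SD, n = 3), below DMSO, so the effect of CHIR had the opposite sign without TGFb1 and the interaction was 5.60 log2 (adjusted p = 8.98e-29). Adamts15, a protease that cuts versican and aggrecan, was at 91.9, 83.0 and 89.1 CPM, fell to 5.47, 4.74 and 4.46 CPM with TGFb1 + DMSO, and stood at 96.7, 95.9 and 98.5 CPM with both. Those last 3 values were all above the solvent values, by 0.14 ± 0.085 log2 (adjusted p = 0.151). Mmp3, the stromelysin, was at 686.6, 579.0 and 581.5 CPM, fell to 104.2, 85.4 and 86.0 CPM, and reached 741.6, 709.7 and 766.6 CPM with both. Its net change of 0.26 ± 0.11 log2 had an adjusted p of 0.0449, which missed 0.05 when DMSO library 2 or 3 or any 1 TGFb1 + CHIR library was left out (0.0532 to 0.139). Cd24a was in the class too, with a net log2 change of -0.10.

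The smooth muscle actin gene Acta2, the usual marker of myofibroblasts, did not meet the 2-fold requirement because its TGFb1 response was 0.71 ± 0.049 log2. It met that requirement with TGFb1 without solvent as the reference, 1 of 17 alternative fits. Its level was 1155.4, 1084.5 and 1101.6 CPM with DMSO, 1705.0, 1869.6 and 1883.4 CPM with TGFb1 + DMSO, and 1012.9, 1034.5 and 1008.1 CPM with both agents. All 3 both-agent libraries were below all 3 solvent libraries, by 0.13 ± 0.049 log2 (adjusted p = 0.0214). That call was lost without DMSO library 1 or 3 or TGFb1 + CHIR library 1 or 3 (adjusted p from 0.0618 to 0.107). Tagln, which encodes the actin-binding protein transgelin, was at 74.0, 70.4 and 64.0 CPM with DMSO and 68.4, 67.7 and 73.8 CPM with both (log2 0.01 ± 0.072, adjusted p = 0.938); it overlaps Pcsk7 on the opposite strand, and no source used here says whether counting used strand. Cnn1, for the actin-binding protein calponin, went the other way and stayed up, from 50.5, 47.4 and 42.0 CPM to 137.3, 133.5 and 148.1 CPM (log2 1.58 ± 0.068, adjusted p = 1.43e-20). Of 27 contractile and myofibroblast genes, 9 were called higher, 16 lower and 2 neither, beside 31.1% higher and 32% lower over all genes tested. Their median was -0.15 log2, against -0.01 over all genes tested. With each DMSO or TGFb1 + CHIR library left out in turn, 12 to 15 fell and 8 to 10 rose. The steepest falls in this group were the integrin gene Itga11 at -2.92 log2 and Synpo2, an actin-bundling protein gene, at -3.61 log2.

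**Figure D3:**
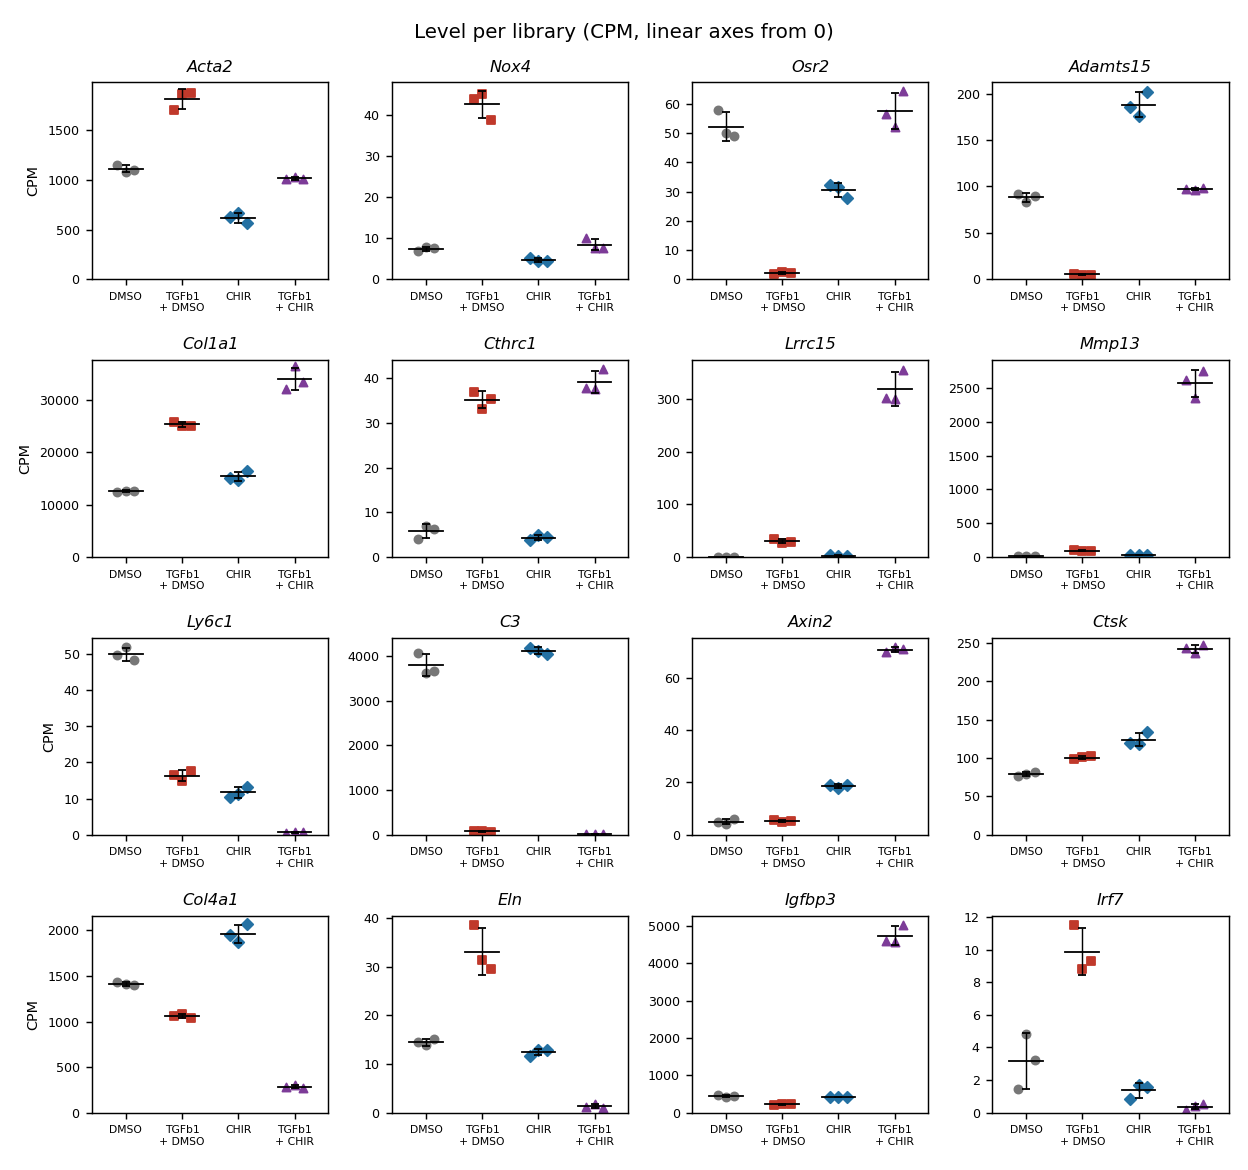
Each panel shows 1 gene, with the level in CPM on the y axis (linear, from 0), every library as a point in 4 groups, a line at the group mean and error bars of 1 SD (n = 3). Nox4 and Osr2 with both agents lie at the DMSO values, while Lrrc15, Mmp13 and Axin2 lie above both single-agent groups.

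Most of the TGFb1 response was still present with both agents: 763 of 1307 raised genes (58.4%) and 1662 of 2224 lowered genes (74.7%) stayed changed. CHIR on top of TGFb1, which changed 43.3% of all genes, moved 216 of the raised genes further and 205 back in part, and for 342 its effect was not called. Of the lowered genes it moved 414 further and 220 back in part, with no call for 1028. Col1a1, the main chain of type I collagen, was one that CHIR moved further. It stood at 12398.7, 12664.6 and 12617.7 CPM with DMSO and at 32154.3, 36422 and 33548 CPM with both agents, 2.71-fold higher (log2 1.44 ± 0.038, adjusted p = 2.54e-34). With TGFb1 + DMSO it was at 25326.9 ± 385.3 CPM, below every both-agent library, and its TGFb1 response of 1.01 log2 lay close to the 2-fold limit, which it missed with RLE scaling, DESeq2 or a 1 CPM filter. Of 8 fibrillar collagen genes tested, 7 rose, with a median of 1.42 log2, and Col27a1 (0.09 log2) did not pass. Col5a3 was the most changed at 2.91 log2, and Col3a1 rose by 1.41 log2.

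The genes that mark activated matrix fibroblasts mostly rose: 14 of 22 rose and 7 fell, with a median of 2.38-fold. With both agents 31.1% of all genes tested rose and 32% fell. Cthrc1, a secreted protein of scar-forming lung fibroblasts, went from 4.08, 6.95 and 6.24 CPM to 37.9, 37.5 and 42.1 CPM (log2 2.77 ± 0.11, adjusted p = 6.82e-28), and TGFb1 + DMSO gave 35.1 ± 1.89 CPM. Postn, for the matrix protein periostin, rose by 1.40 log2, the glycoprotein gene Tnc by 2.90, and the hyaluronan synthase gene Has2 by 3.90. Tnc and Has2 each overlap a gene on the opposite strand. Among TGFb and SMAD targets, 10 of 21 rose, 5 fell and 6 did not pass, with a median of 0.12 log2, against 1.14 with TGFb1 + DMSO, where 15 rose, beside 30.7% of all genes called higher and 31.3% called lower there. The members went separate ways. Pmepa1 and Skil, which restrain TGFb signalling, stayed at 3.88 and 2.81 log2 above DMSO. Ccn2, for connective tissue growth factor, went from 84.5, 101.2 and 97.0 CPM with DMSO to 1038.0, 1183.4 and 1117.2 CPM with TGFb1 + DMSO and 327.2, 309.7 and 297.7 CPM with both, a net log2 change of 1.73 ± 0.065 (adjusted p = 3.84e-17).

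Lrrc15 and Mmp13 were among the largest net rises, and Axin2 is the reporter of Wnt signalling described next. The promoter windows of these genes and of the metalloproteinase genes Mmp10 and Mmp3 are printed to show which hold the AP-1 letters TGANTCA close to the start site. The windows are RefSeq sequence of GRCm38.p6, from 250 bases before to 50 after the start, read 5′ to 3′ on the gene's strand, and capitals mark the AP-1 match. Lrrc15 lies at chr16:30283205-30283504, minus strand, Mmp13 at chr9:7272264-7272563, plus strand, Mmp10 at chr9:7502092-7502391, plus strand, Mmp3 at chr9:7445572-7445871, plus strand, and Axin2 at chr11:108920099-108920398, plus strand; the Axin2 window holds no match to AP-1 or to the TCF/LEF letters CTTTGAT.
Lrrc15: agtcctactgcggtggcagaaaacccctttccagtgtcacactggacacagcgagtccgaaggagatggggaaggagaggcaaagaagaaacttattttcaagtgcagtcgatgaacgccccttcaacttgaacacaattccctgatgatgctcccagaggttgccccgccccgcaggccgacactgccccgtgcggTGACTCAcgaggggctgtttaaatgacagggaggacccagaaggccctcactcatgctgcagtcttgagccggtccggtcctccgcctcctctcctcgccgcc
Mmp13: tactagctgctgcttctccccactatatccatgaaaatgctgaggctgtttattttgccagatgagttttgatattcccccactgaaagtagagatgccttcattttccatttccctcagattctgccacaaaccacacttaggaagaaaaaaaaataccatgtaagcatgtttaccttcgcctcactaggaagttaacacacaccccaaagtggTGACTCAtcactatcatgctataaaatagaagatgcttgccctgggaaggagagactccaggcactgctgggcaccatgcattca
Mmp10: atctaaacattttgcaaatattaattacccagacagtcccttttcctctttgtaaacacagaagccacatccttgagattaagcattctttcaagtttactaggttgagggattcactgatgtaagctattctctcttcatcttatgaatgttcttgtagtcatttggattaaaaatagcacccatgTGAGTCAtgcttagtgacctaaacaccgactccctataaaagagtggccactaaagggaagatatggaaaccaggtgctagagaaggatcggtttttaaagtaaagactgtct
Mmp3: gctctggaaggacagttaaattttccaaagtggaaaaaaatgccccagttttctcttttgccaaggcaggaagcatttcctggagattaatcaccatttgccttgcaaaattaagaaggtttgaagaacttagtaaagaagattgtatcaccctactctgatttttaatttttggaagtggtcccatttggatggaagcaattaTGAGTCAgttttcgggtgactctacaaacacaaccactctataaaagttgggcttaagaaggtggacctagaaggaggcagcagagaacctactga
Axin2: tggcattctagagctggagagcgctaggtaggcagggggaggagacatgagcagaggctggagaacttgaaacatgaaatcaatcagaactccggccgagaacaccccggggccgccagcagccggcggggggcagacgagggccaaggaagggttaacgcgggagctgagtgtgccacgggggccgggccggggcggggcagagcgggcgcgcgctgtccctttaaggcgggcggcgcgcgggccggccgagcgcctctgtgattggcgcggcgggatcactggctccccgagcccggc

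The AP-1 match begins at position -53 from the start in Lrrc15, -35 in Mmp13, -63 in Mmp10 and -46 in Mmp3. AP-1, a dimer of FOS and JUN family proteins, is a known regulator of metalloproteinase genes. Searched on both strands, TGANTCA was present in 51 of 499 windows (10.2%) of genes that TGFb1 raised and that stayed up, in 540 of 10823 windows (4.99%) of genes tested and in 2565 of 32851 (7.81%) of the whole table. The windows of C1qtnf3, Dsp, Nkd2 and Col5a3, which also stayed up, hold no AP-1 match. Mmp3 was among the genes that TGFb1 lowered and that were back at baseline, where 1 of 29 windows (3.45%) held the letters. Only genes whose symbol matched the table have a window. CTTTGAT was in 1 of 53 windows (1.89%) of new higher genes, in 273 of 10823 (2.52%) of genes tested and in 1225 of 32851 (3.73%) of the table. It was in 0 of 16 windows of Wnt target genes, which says only that these letters are not in those windows. These shares are descriptions.

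Lrrc15, which encodes a leucine-rich repeat membrane protein of TGFb-activated fibroblasts, was among the 12 highest net changes by the rule for named genes. It stood at 0.476, 0.235 and 0.243 CPM with DMSO, 34.0, 27.1 and 28.8 CPM with TGFb1 + DMSO, 2.72, 2.02 and 2.09 CPM with CHIR, and 301.9, 300.3 and 356.3 CPM with both. Its net log2 change was 9.93 ± 0.15 (adjusted p = 6.61e-31), and the interaction of 0.60 log2 did not pass (adjusted p = 0.278). Mmp13, a collagenase, stood at 5.85, 6.38 and 6.49 CPM with DMSO, 96.1, 87.0 and 84.1 CPM with TGFb1 + DMSO, 26.8, 24.1 and 26.7 CPM with CHIR, and 2613.6, 2347.4 and 2749.1 CPM with both. Its net log2 change was 8.69 ± 0.15 (adjusted p = 1.97e-17), with an interaction of 2.80 log2 (adjusted p = 2.21e-08). The stromelysin gene Mmp10 rose from 4.32, 2.42 and 3.16 CPM to 42.2, 46.9 and 58.3 CPM (log2 3.89 ± 0.21). For each of the 3 genes, every both-agent library was above every library of DMSO and of the single agents. C1qtnf3, a secreted protein of the C1q and TNF family, Stra6, the receptor for vitamin A uptake, and Dsp, which encodes the desmosome protein desmoplakin, were at 7.95, 7.82 and 6.88 log2 above DMSO. Of 30 matrix protease and inhibitor genes, 15 rose and 12 fell, beside 31.1% and 32% of all genes tested. The median was 0.40 log2, and the falls included the aggrecanase gene Adamts5 at -4.37 log2.

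Wnt feedback and target genes were mostly higher: 19 of 24 tested rose and 5 fell, beside 31.1% and 32% of all genes tested. Their median was 1.84 log2, against 0.14 with TGFb1 + DMSO and 0.06 with CHIR alone. Axin2, a scaffold of the complex that destroys beta-catenin and the standard Wnt reporter gene, stood at 4.69, 4.13 and 6.16 CPM with DMSO, 5.67, 5.04 and 5.19 CPM with TGFb1 + DMSO, 18.9, 17.9 and 19.0 CPM with CHIR, and 69.7, 71.6 and 71.0 CPM with both. The net log2 change was 3.83 ± 0.12 (adjusted p = 9.1e-33) and the interaction 1.83 log2 (adjusted p = 7.02e-13). The groups with CHIR lay wholly above those without, and those with both agents highest. Nkd2, a cytoplasmic Wnt inhibitor, was at 7.82, 9.84 and 8.55 CPM with DMSO, at 19.2, 21 and 19.8 CPM with TGFb1 + DMSO, at 8.98, 8.40 and 10.4 CPM with CHIR, and at 478.5, 494.1 and 564.5 CPM with both. CHIR alone thus overlapped DMSO, and the net log2 change with both was 5.87 ± 0.098 with an interaction of 4.61 log2 (adjusted p = 5.62e-20). Lef1 and Tcf7, the DNA-binding partners of beta-catenin, were 4.21 and 4.11 log2 higher, and Lgr5, the R-spondin receptor gene, 8.98 log2 higher from 0, 0.369 and 0 CPM in DMSO.

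In 3 members of this list, Nkd1, Notum and Tnfrsf19, TGFb1 + DMSO lowered the gene and both agents carried it past the baseline. Nkd1, the relative of Nkd2, went from 52.7, 49.9 and 47.8 CPM to 24.4, 23 and 24.6 CPM with TGFb1 + DMSO and 152.3, 148.7 and 170.2 CPM with both (net log2 1.65 ± 0.07, adjusted p = 9.67e-27). Axin2, Dkk2 and Znrf3 were the 3 members in the new class. The 5 that fell were the cyclin gene Ccnd1 (-2.32 log2), Sox4 (-0.89), Bmp4 (-0.88), the receptor gene Fzd7 (-0.84) and Myc (-0.49). The call for Bmp4 was lost without any 1 of the libraries except DMSO library 1 (adjusted p from 0.0523 to 0.115), which leaves 4 that fell. Among ligands, receptors and secreted antagonists, 10 of 28 rose and 15 fell. The ligand gene Wnt2 went from 0.646, 0.436 and 1.30 CPM to 76.9, 70.3 and 75.5 CPM (log2 6.59 ± 0.19, adjusted p = 1.74e-27), and Wnt9a rose by 4.16 log2. The Wnt amplifier gene Rspo2 fell by 7.34 log2, and the antagonist gene Sfrp4 by 4.19.

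**Figure D4:**
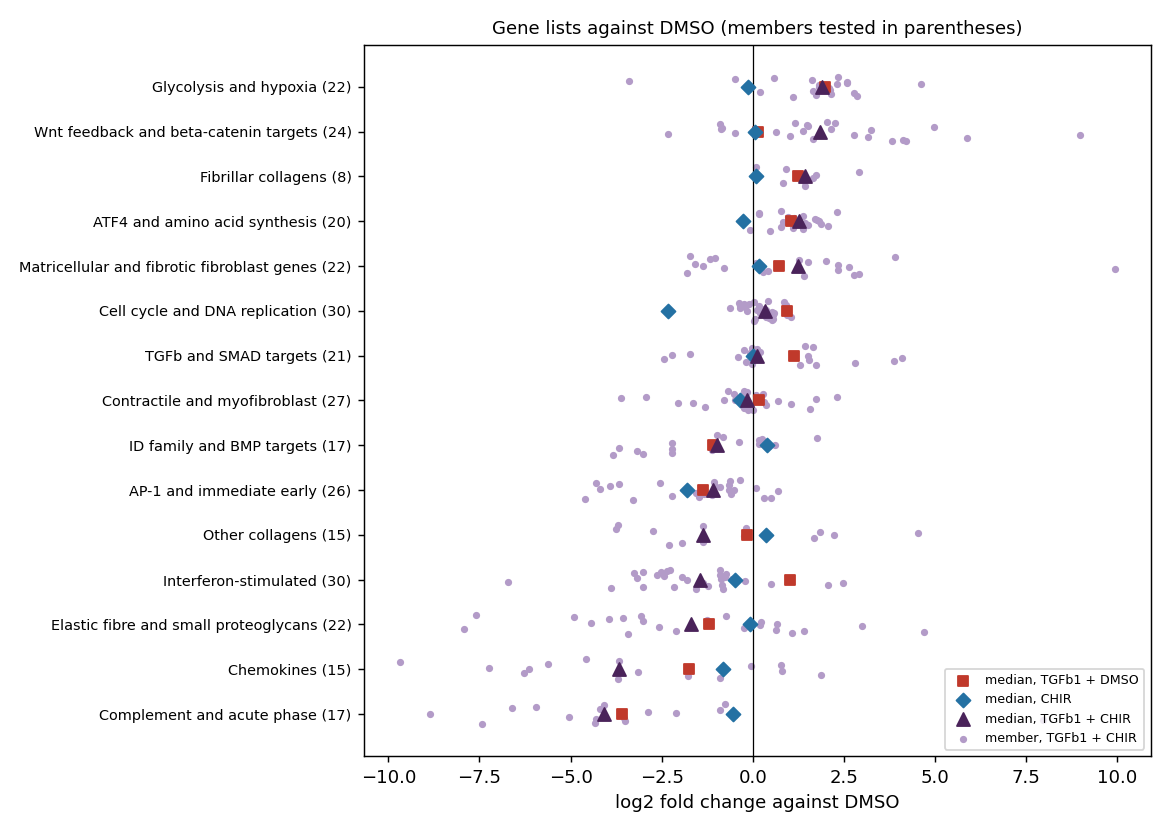
Each row is a gene list with its number of members tested, the x axis is the log2 fold change against DMSO, small points are members with TGFb1 + CHIR, and large symbols are the list medians in 3 comparisons; fitted values of genes at 0 in a group depend on the prior count. With both agents the medians shown run from 1.91 for glycolysis and 1.84 for Wnt targets down to -3.67 for chemokines and -4.07 for complement genes.

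Genes of resident lung fibroblasts mostly fell, while 32% of all genes tested fell and 31.1% rose. Of 25 adventitial and progenitor fibroblast genes, 18 fell and 5 rose, with a median of -1.27 log2, and of 18 alveolar and lipid-handling fibroblast genes, 13 fell and 4 rose, with a median of -2.10 log2. Scara5, a scavenger receptor that takes up ferritin, went from 283.9, 270.9 and 283.0 CPM to 0.111, 0.0988 and 0.0509 CPM (log2 -11.53 ± 0.18, adjusted p = 8.34e-34). Inmt, a methyltransferase of small amines that is typical of alveolar fibroblasts, stood at 43.3, 39.5 and 37.9 CPM with DMSO and had no read in the 3 TGFb1 + CHIR libraries, so it was at least 899.9-fold lower (floor of 3 counts over the group). The carboxylesterase gene Ces1d, also with no read, was at least 243-fold lower. Efemp1, for the matrix protein fibulin-3, went from 1406.8, 1362.2 and 1346.7 CPM to 5.67, 4.89 and 6.41 CPM (log2 -7.92 ± 0.069, adjusted p = 1.08e-56), and TGFb1 + DMSO gave 44.9 ± 1.18 CPM. Dcn, for the small proteoglycan decorin, fell by 4.45 log2, the tenascin gene Tnxb by 7.59 and the PDGF receptor gene Pdgfra by 1.53. Of 22 elastic fibre and small proteoglycan genes, 14 fell and 8 rose; fibrillin-2, Fbn2, rose by 4.70 log2.

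Innate defence and recruitment genes were lower as well, beside 32% of all genes tested called lower and 31.1% called higher. Of 17 complement and acute phase genes, 16 fell, with a median of -4.07 log2, and the 1 that rose was C1qtnf3. C3, the central complement protein, went from 4072.8, 3619.0 and 3670.3 CPM to 22.2, 23.3 and 20 CPM (log2 -7.43 ± 0.067, adjusted p = 1.15e-41), and TGFb1 + DMSO gave 75.6 ± 3.39 CPM. CHIR alone left it at 4112.5 ± 75.8 CPM. Of 15 chemokine genes, 11 fell and 1 rose, with a median of -3.67 log2. Cxcl12, which retains and attracts leukocytes through CXCR4, went from 1924.5, 2030.6 and 2065.1 CPM to 45.2, 41.0 and 35.0 CPM (log2 -5.63 ± 0.061, adjusted p = 2.19e-42). Either agent alone left it far higher, at 707.1 ± 10.1 CPM with TGFb1 + DMSO and 838.4 ± 7.05 CPM with CHIR, and the interaction was -2.86 log2 (adjusted p = 1.14e-28). Of 22 NF-kB targets and feedback genes, 16 fell and 6 did not pass, and of 14 antigen presentation genes, 12 fell and 1 rose. Of 17 ID family and BMP pathway genes, 11 fell and 4 rose, with Id1, an inhibitor of DNA-binding factors induced by BMP, at -3.83 log2.

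Genes of the AP-1 and immediate early group fell in 22 of 26 cases and rose in 3, beside 32% and 31.1% of all genes tested. The median was -1.09 log2. Fos, a subunit of AP-1, stood at 1643.7, 1474.8 and 1431.4 CPM with DMSO, 165.6, 134.8 and 118.4 CPM with TGFb1 + DMSO, 8.42, 6.96 and 6.96 CPM with CHIR, and 150.2, 144.1 and 173.2 CPM with both. The net log2 change was -3.28 ± 0.17 (adjusted p = 4.86e-11). The both-agent libraries overlapped TGFb1 + DMSO and lay wholly above CHIR alone, with an interaction of 7.82 log2 (adjusted p = 1.3e-12).

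Most genes on the lists for glycolysis and hypoxia and for ATF4 and amino acid synthesis rose, beside 31.1% of all genes tested. Of 22 glycolysis and hypoxia genes, 20 rose and 1 fell, with a median of 1.91 log2, and 19 were in the class that stayed changed. Hk2, hexokinase 2, went from 35.3, 34.7 and 32.9 CPM to 252.6, 262.3 and 231.2 CPM (log2 2.86 ± 0.057, adjusted p = 5.01e-41). The lactate exporter gene Slc16a3 went from 4.01, 3.42 and 4.38 CPM to 99.1, 89.6 and 100.1 CPM (log2 4.62 ± 0.079), beside 104.7 ± 2.55 CPM with TGFb1 + DMSO. The member that fell was Adm, for the peptide adrenomedullin, at -3.40 log2. Of 20 ATF4 and amino acid synthesis genes, 18 rose and 2 did not pass, with a median of 1.26 log2; the serine synthesis gene Psph rose by 2.06 and the mitochondrial folate gene Mthfd2 by 1.86. Of 22 secretory pathway genes, 20 rose and 1 fell, with a smaller median of 0.45 log2.

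Cell cycle genes lay slightly above DMSO on balance. Mki67, which marks cycling cells, stood at 193.2, 206.9 and 232.4 CPM with DMSO, 438.1, 383.9 and 402 CPM with TGFb1 + DMSO, 28.0, 24.4 and 25.8 CPM with CHIR alone, and 227.2, 219.2 and 196.6 CPM with both. The last group overlapped DMSO (log2 0.03 ± 0.088, adjusted p = 0.82). Across 30 cell cycle and DNA replication genes, 17 rose, 6 fell and 7 did not pass, with a median of 0.33 log2. The shares over all genes tested were 31.1% higher and 32% lower. With TGFb1 + DMSO all 30 rose, beside 30.7% of all genes tested, with a median of 0.95 log2. The median with CHIR alone was -2.32 log2. The ribonucleotide reductase gene Rrm2 and the cyclin E gene Ccne1 stayed 0.92 and 1.04 log2 above DMSO, and the CDK inhibitor gene Cdkn1a was 1.91 log2 higher.

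New genes, which TGFb1 in solvent left within 1.5-fold, numbered 65 higher and 104 lower. CHIR alone made the same change of at least 2-fold in 5 and 9 of them, beside 2.69% and 6.09% of all genes. In 42 and 54, CHIR alone also left the gene within 1.5-fold and the interaction was called, so neither agent alone gave a change of that size. With each agent alone within 1.5-fold and a net change of at least 2-fold, a called interaction is nearly fixed by the definition. The share of all genes with a called interaction, 41.2%, is therefore no measure for these counts. Mmp2, gelatinase A, is of the first kind: 1892.1, 1718.9 and 1670.2 CPM with DMSO, 1960 ± 15 CPM with TGFb1 + DMSO, 4130.6 ± 109 CPM with CHIR, and 3670.2, 3716.8 and 3820.6 CPM with both (net log2 1.09 ± 0.037, adjusted p = 5.86e-31). Irx1, a homeobox gene, and the kinase gene Nuak2 were lower in the same way, at -1.99 and -1.22 log2.

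Ctsl, which encodes the lysosomal protease cathepsin L, is of the second kind. It stood at 1817.1, 1759.2 and 1710.7 CPM with DMSO, 1709.7 ± 76.9 CPM with TGFb1 + DMSO, 2063.7 ± 65.8 CPM with CHIR, and 4904.9, 4790.4 and 5052 CPM with both (net log2 1.48 ± 0.038, adjusted p = 1.28e-36). Its interaction was 1.30 log2 (adjusted p = 8.65e-27). The galectin-like gene Lgalsl went from 64, 65 and 67.3 CPM to 233.3, 232.8 and 238.2 CPM (log2 1.84 ± 0.052), and Enc1, an actin-binding protein gene, rose by 1.71 log2. In these genes the both-agent libraries lay above all libraries of the other groups.

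Col4a1, a basement membrane collagen gene, was among the new lower genes. It stood at 1429.5, 1410.7 and 1395.9 CPM with DMSO, 1061.3 ± 22.5 CPM with TGFb1 + DMSO, 1964.8 ± 97.9 CPM with CHIR, and 278.6, 307.3 and 272.1 CPM with both (net log2 -2.30 ± 0.044, adjusted p = 2.85e-42). Its neighbour Col4a2, which starts next to it on the opposite strand, fell by 1.94 log2. Col15a1, a collagen of the outer basement membrane zone, was at 39, 33.8 and 32.3 CPM with DMSO, 28.6 ± 1.5 CPM with TGFb1 + DMSO, 274.2, 251.7 and 260.9 CPM with CHIR, and 2.52, 2.67 and 2.65 CPM with both. CHIR raised it without TGFb1 and lowered it with TGFb1, and the interaction was -6.36 log2 (adjusted p = 1.08e-33). Over the 15 other collagens tested, 10 fell and 4 rose, beside 32% and 31.1% of all genes tested, with a median of -1.37 log2. The integrin gene Itga9 and Ltbp2, for a latent TGFb binding protein relative in microfibrils, were new lower genes at -2.42 and -2.44 log2, and each overlaps a non-coding gene on the opposite strand.

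**Figure D5:**
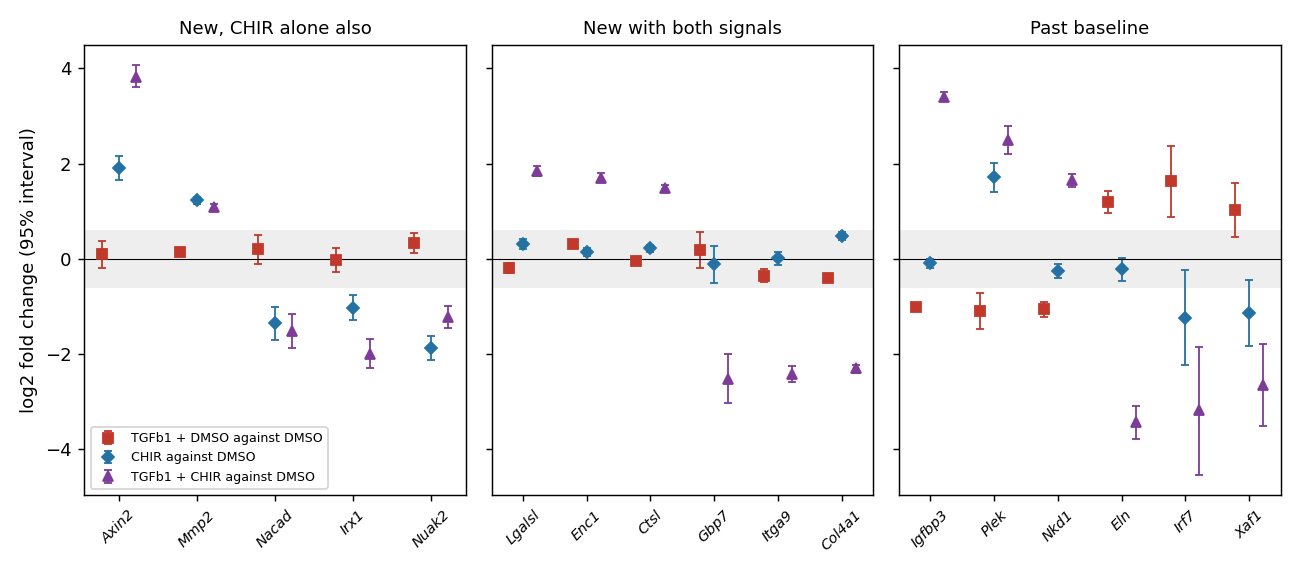
For each gene on the x axis, the points give the log2 fold change against DMSO of TGFb1 + DMSO (squares), CHIR (diamonds) and TGFb1 + CHIR (triangles), with 95% confidence intervals; the grey band is 1.5-fold either way. Genes in the middle panel leave the band with both agents and with neither alone, and in the right panel Igfbp3 and Eln lie on opposite sides of 0 with TGFb1 + DMSO and with both agents. Gbp7 in the middle panel kept its class in only 9 of 17 alternative fits, and Nacad in the left panel in 13.

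Genes carried past the baseline numbered 27 that TGFb1 raised and both agents left at least 2-fold below DMSO, and 21 with the reverse. Eln, for elastin, stood at 14.4, 13.8 and 15.2 CPM with DMSO, 38.5, 31.3 and 29.4 CPM with TGFb1 + DMSO, and 1.22, 1.78 and 1.02 CPM with both (net log2 -3.43 ± 0.17, adjusted p = 1.54e-22). CHIR alone left it at 12.5 ± 0.679 CPM. Igfbp3, which binds insulin-like growth factors, stood at 464.9, 429.7 and 439.3 CPM with DMSO, 206.5, 222.2 and 231.4 CPM with TGFb1 + DMSO, 412.3, 428.2 and 413.4 CPM with CHIR, and 4598.8, 4587.9 and 5033.2 CPM with both. Its net log2 change was 3.41 ± 0.047 (adjusted p = 1.02e-46) and the interaction 4.52 log2 (adjusted p = 6.58e-45). Its TGFb1 response lay close to the 2-fold limit of the class, which it missed without DMSO library 1, without TGFb1 + DMSO library 1 and with no filter on low counts. Hsd11b1, whose enzyme regenerates active glucocorticoid, had a net change of 2.90 log2 and a TGFb1 response of -2.96 log2, and it overlaps Lamb3 on the opposite strand.

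Of the 27 genes taken below the baseline, 8 were on the list of interferon-stimulated genes: Ifi44, Oasl2, Oas2, Mx2, Irf7, Usp18, Rtp4 and Xaf1. That list held 30 of the 16197 genes tested. Usp18 missed the net threshold without DMSO library 2 or 3 or TGFb1 + CHIR library 1 or 3 (adjusted p from 0.0546 to 0.0848), as did Mx2 without DMSO library 2 (0.0768). Rtp4 and Xaf1 left the class without DMSO library 1, without TGFb1 + DMSO library 1 and with TGFb1 without solvent as the reference, and Oas2 left it with voom and with that reference. Of 30 such genes tested, TGFb1 + DMSO raised 22 and lowered 1, with a median of 1.01 log2. Over all genes tested it raised 30.7% and lowered 31.3%. With both agents 22 of the 30 fell and 3 rose, with a median of -1.46 log2, beside 32% and 31.1% of all genes tested. Irf7, the transcription factor that amplifies the interferon response, stood at 1.43, 4.83 and 3.24 CPM with DMSO, 11.5, 8.79 and 9.29 CPM with TGFb1 + DMSO, 0.857, 1.67 and 1.56 CPM with CHIR, and 0.185, 0.395 and 0.509 CPM with both. The net log2 change was -3.18 ± 0.63 (adjusted p = 0.000368); Irf7 overlaps Phrf1 on the opposite strand. Xaf1, an interferon-induced apoptosis gene, went from 2.42, 5.61 and 4.58 CPM to 0.889, 0.692 and 0.356 CPM (log2 -2.64 ± 0.41). Isg15, the ubiquitin-like protein gene, was at 2.21, 6.55 and 4.62 CPM with DMSO and 2.30, 3.26 and 1.93 CPM with both, and did not pass (log2 -0.84 ± 0.40, adjusted p = 0.0808). DMSO library 1 was the lowest of its group for all 3 genes. With each DMSO or TGFb1 + CHIR library left out in turn, 19 to 24 members fell and the median ran from -1.70 to -1.18 log2, with 24 and -1.60 without DMSO library 1.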

How the data were processed

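Bulk RNA-seq measured 21 libraries of Ly6C+/Sca-1+ mouse lung fibroblasts. Total RNA libraries came from a stranded Illumina kit, per the labels' protocols. The values are raw read counts per Ensembl gene as deposited by the authors, in 1 table of 52636 genes. The 21 single-library tables hold the same values. The submitters' processing notes name the builds GRCh38 and GRCm38 without a role. The aligner, the counter and its strand setting appear in no source used here, so values of genes that overlap on opposite strands are uncertain. Symbols and coordinates came from GENCODE M21 (GRCm38), which matched 52489 gene IDs. The other 147 held 0.0074% of counts. Gapdh has only 45 counts over all libraries and was not used.

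Counts were fitted with edgeR 4.0.16 in R 4.3.3: filterByExpr, TMM factors, 1 coefficient for each of 7 groups over 21 libraries, robust quasi-likelihood tests, and Benjamini-Hochberg adjustment over 16197 genes at 0.05. CPM values are the deposited counts scaled by library size and TMM factor. A standard error is the log2 change divided by the square root of F, and 95% intervals use the t quantile at the fit's degrees of freedom. A gene with no read in both groups of a contrast has no interval. The net fit was also run on simulated counts with the same spread for every gene and few genes changed. Such counts cannot check the scaling, the classes or the interaction in these data. Replicates were numbered in accession order.

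Named genes were, among genes averaging 2 log2 CPM or more, the 12 highest and 12 lowest net changes without overlap between groups, 6 per class and direction, up to 4 called members per gene list with the largest net change, and 19 by name. Some genes that this rule takes are not reported here. Other list members named here were chosen after their values were seen. The libraries compared, the gene lists and the named genes were chosen with earlier results of these data known. Alternatives were DESeq2 1.42.0, limma 3.58.1 with voom, other scalings and filters, fewer groups in the fit, TGFb1 without solvent as the reference, other margins and response sizes, and leaving out libraries.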

Additional observations from a re-analysis of the deposited data

Results flagged for a closer look

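The effect of CHIR differed with and without TGFb1, by a called interaction term in edgeR's quasi-likelihood test, in 160 of the 221 genes that the naming rule gave. The share over all genes tested was 41.2%. The naming rule takes some genes by a called interaction and some by classes that need an effect of CHIR. These shares are therefore not comparable, and a higher share among the named genes is partly built in. Groups of 3 libraries were not searched for outlying samples. Leaving aside genes with no read in a whole group, the difference was over 5 log2 in size in 7 of the named genes. It is given here as the CHIR effect with TGFb1 less the CHIR effect without it. Each such difference, and each split of the new genes, rests on the CHIR libraries. Their titles carry numbers apart from those of DMSO. Mitochondrial genes held 0.992, 1.173 and 0.962% of their counts, against 0.591, 0.564 and 0.561% with DMSO. The labels name no batch, and separate handling cannot be told apart from an effect of CHIR alone.

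Fosb, an AP-1 subunit gene, had a difference of 7.94 ± 0.30 log2: CHIR alone changed it by -7.91 log2 and CHIR on top of TGFb1 by 0.03 log2. Fos followed with 7.82 ± 0.27 log2, from -7.66 without TGFb1 and 0.16 with it. Zfp36, whose protein speeds the decay of cytokine mRNAs, had 5.84 ± 0.18 log2, from -5.35 and 0.49. The neutrophil chemoattractant gene Cxcl1 had 5.07 ± 0.49 log2, from -4.91 and 0.15. In these 4 genes TGFb1 + DMSO was already far below DMSO, at -4.63, -3.44, -4.79 and -6.29 log2 in the same order.

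Osr2 had 5.60 ± 0.17 log2, from -0.77 without TGFb1 and 4.83 with it. Hsd11b1 had 5.48 ± 0.48 log2, from 0.38 and 5.86. Col15a1 went the other way at -6.36 ± 0.13 log2, from 2.90 without TGFb1 and -3.45 with it. The adjusted p-values of the 7 differences ran from 1.08e-33 for Col15a1 to 1.32e-07 for Hsd11b1.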

How the results depend on the processing

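No result reversed under any alternative run. DESeq2, voom, other scalings and filters and fewer groups in the fit kept every count within 1.5 times the reported one. Leaving out 1 library of DMSO or TGFb1 + CHIR gave 4783 to 5013 genes higher and 4787 to 4978 lower. The class counts depended on the cut-offs that define them. With a narrower margin, 19 raised and 9 lowered genes were back at baseline, and new genes were 14 higher and 19 lower, of which 1 and 2 also changed with CHIR alone and 5 and 5 had CHIR alone within the margin and a called interaction. With a margin of 2-fold, the counts were 253 and 168 back at baseline, 227 and 316 new, 14 and 36 with CHIR alone, and 142 and 192 with the interaction. With a response size of 1.5-fold, 343 and 210 were back at baseline, 1469 raised genes stayed changed, 59 and 42 were past baseline, and 398 and 342 were new, of which 34 and 53 also changed with CHIR alone and 201 and 163 had the interaction. With TGFb1 without solvent as the reference, 15 new lower genes also changed with CHIR alone. The smaller or larger cut-off is itself the reason for these differences, except for the last, whose cause was not tested. Among named genes, Mmp3, Acta2, Usp18, Krt19, Cd68, Myh11, Vwf, Fcer1g, Gdf10, Upk3b and Oas2 lost a call under at least 1 alternative, and Adamts15 and Tubb2b gained one. Of 17 alternative fits, Cmklr1 and Gbp7 kept their class in 9, Usp18 in 12, and Ccne1 and Nacad in 13. Col1a1, Igfbp3, Nuak2, Rtp4 and Xaf1 kept theirs in 14, Oas2 in 15, and Itga11, Ly6a, Mmp3, Nkd1 and Plek in 16. Col1a1 was no longer in its class with RLE scaling, DESeq2 or a 1 CPM filter. Acta2, Tagln and Mki67, below the 2-fold TGFb1 response in the main fit, met it with TGFb1 without solvent as the reference. Mki67 also met it without DMSO library 3. The counts of list members without each library were added after seeing the data; without TGFb1 + CHIR library 3, the number of chemokine genes higher went from 1 to 2, and that of D cyclin and CDK inhibitor genes higher from 5 to 3. No paired analysis was possible because replicate numbers follow accession order and the labels give none. Depth limits genes with few reads in a group. Only where a group had no read is the change given as a bound, with a floor of 3 counts. Genes with few reads, such as Lgr5 with DMSO and Scara5 with both agents, keep their fitted changes.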

Other observations

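Genes for signals that fibroblasts send to other cells moved in both directions between TGFb1 + CHIR and DMSO. Of 34 cytokine and growth factor genes tested, 9 were higher, 22 lower and 3 neither, with a median of -0.97 log2 against -0.01 over all genes tested. Of all genes tested, 31.1% were called higher and 32% lower. The lymphatic growth factor gene Vegfd went from 1200.1, 1215.9 and 1198.5 CPM with DMSO to 12.7, 11.5 and 15.1 CPM with both agents (log2 -6.53 ± 0.079, adjusted p = 2.29e-34), beside 412.9 ± 6.94 CPM with CHIR alone. The angiopoietin gene Angpt2 and the growth factor gene Igf2 fell by 6.19 and 5.40 log2. Il11, a TGFb-induced cytokine of the IL6 family, went from 0.102, 0.0672 and 0.324 CPM to 2.04, 2.86 and 3.36 CPM (log2 4.08 ± 0.35, adjusted p = 8.82e-15). Of 16 genes for TGFb ligands, receptors and storage proteins, 8 rose and 8 fell. The activin subunit gene Inhba stood at 53.1, 62.2 and 62.1 CPM with DMSO, 222.9 ± 1.3 CPM with TGFb1 + DMSO and 563.1, 548.3 and 594 CPM with both (log2 3.27 ± 0.057). Tgfb2 went from 34.7, 30.8 and 32.3 CPM to 202.9, 193.6 and 209.5 CPM (log2 2.63 ± 0.061), above all libraries of either agent alone.

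Of 15 Notch and Hedgehog genes, 7 fell and 3 rose: the Notch target Hey2 and the receptor gene Notch1 fell by 5.48 and 3.22 log2, the Hedgehog antagonist gene Hhip fell by 3.32, and the Hedgehog target Gli1 rose by 3.63, from 0.170, 0.101 and 0.365 CPM with DMSO. Of 26 mesenchymal transcription factor genes, 16 fell and 7 rose, with a median of -0.27 log2. Of 26 sterol and fatty acid synthesis genes, 10 rose and 9 fell, with a median of 0.04 log2. For all genes tested the shares were 31.1% higher and 32% lower, so the sterol counts lay near the background. The 10 mitochondrially encoded protein genes had net changes from -0.31 to 0.23 log2, with a median of -0.15.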
